A study of Homo sapiens with 4 samples.

Results

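The 9 genes described here encode SOX transcription factors and were chosen by symbol from the 25559 genes of the count tables of HGC-27 cells: SOX2, SOX4, SOX5, SOX6, SOX8, SOX9, SOX11, SOX12 and SOX13. All 9 symbols were found. HGC-27 is an established human gastric cancer cell line. RNA-seq of polyA RNA was made from 2 libraries of wild-type cells (the control cells) and 2 libraries of RUNX3 knock-out cells (RUNX3 KO), and the comparison asks how expression differs when RUNX3, a Runt domain transcription factor, is disrupted. The knock-out was made with a lentiviral Cas9 plasmid whose guide targets exon 3 of RUNX3, followed by puromycin selection and single-cell cloning. The number of clones behind the 2 RUNX3 KO libraries and the treatment of the control cells for these libraries are not given in the sources used here, so clone and genotype cannot be told apart. No other treatment is given in the labels.

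SOX factors share an HMG box, a DNA-binding domain that fits into the minor groove of DNA and bends it. They usually act with a partner factor bound nearby, and members of a subgroup have nearly the same box and overlapping roles. SOX4, SOX11 and SOX12 form the SOXC subgroup, activators in neural and mesenchymal progenitors, of which SOX4 is also known as a gene downstream of TGF-beta that promotes epithelial-mesenchymal transition. SOX5, SOX6 and SOX13 form the SOXD subgroup, which lacks an activation domain of its own and works with SOX9 in cartilage. SOX8 and SOX9 belong to the SOXE subgroup of cartilage, neural crest, testis and gut stem cells, and SOX2, of the SOXB1 subgroup, keeps pluripotent and neural stem cells and also takes part in foregut and stomach development.

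The HMG box is shown first because it is what makes these genes a family and because reads from near-identical copies could be shared between them. The same 60 bases of coding sequence are given for a pair of SOXC and a pair of SOXD genes, with capitals at the bases that are the same in all 6 members with enough reads to test (31 of the 60 bases). They were read from the GRCh37 transcripts at chr6:21594946-21595005 on the plus strand for SOX4, chr20:306692-306751 plus for SOX12, chr11:16010583-16010642 minus for SOX6 and chr1:204092833-204092892 plus for SOX13.
SOX4: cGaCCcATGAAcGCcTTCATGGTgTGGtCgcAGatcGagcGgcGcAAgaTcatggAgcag
SOX12: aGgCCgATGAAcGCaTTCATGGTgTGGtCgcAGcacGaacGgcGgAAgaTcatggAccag
SOX6: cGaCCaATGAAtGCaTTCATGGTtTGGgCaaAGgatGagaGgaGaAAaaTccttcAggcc
SOX13: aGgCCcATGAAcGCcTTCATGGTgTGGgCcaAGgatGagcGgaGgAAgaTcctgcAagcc
Over the whole box, SOX4 was 84.0% identical to SOX12 and 86.9% to SOX11, its SOXC relatives, but 57.8% to SOX6. SOX6 and SOX13 were 78.9% identical. The longest run of bases that any pair of the 9 transcripts shared was 37, between SOX8 and SOX9, and within SOXC it was 35, between SOX11 and SOX12. Such runs are a small part of transcripts that are 3087 bases (SOX8) or longer among the tested members.

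The libraries held 11731401 to 12110876 reads on genes. RUNX3 itself had 351 and 308 counts in control cells and 225 and 185 in RUNX3 KO cells, which is -0.70 on the log2 scale (SE 0.0961, edgeR adjusted p = 1.43e-09). A guide that disrupts an exon need not lower the mRNA. The study reports loss of RUNX3 in mRNA and in protein after cloning, with no RUNX3 protein seen by immunoblot in the knock-out cells. The counts here bear on mRNA alone. Without RUNX3 KO replicate 2 the log2 fold change was -0.55 (adjusted p = 0.0649). The epithelial markers were nearly absent from this gastric line: KRT19 had no count, EPCAM had 1 count in each control library, and all 6 markers summed to 35 to 38 counts in control and 105 to 127 in RUNX3 KO libraries. KRT8 rose from 19 and 11 to 72 and 81 counts. CDH1 had 15 and 21, then 30 and 32, and passed the test in the 4 libraries (adjusted p = 0.0238 by edgeR) but not with DESeq2 (adjusted p = 0.273), with no filter, or without control replicate 1 or either RUNX3 KO library (adjusted p of 0.238, 0.135 and 0.172 by edgeR). The 7 lymphoid and myeloid markers summed to 20 to 31 counts in control and 18 to 20 in RUNX3 KO libraries. The 5 endothelial markers summed to 4 and to 5 to 6 counts. The part of these markers in the SOX values was not tested.

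Of the 9 SOX genes, 6 had enough reads to test. RUNX3 KO cells had less of the SOXC genes SOX4, SOX11 and SOX12 and more of SOX6, SOX13 (SOXD) and SOX8 (SOXE). No test was made of a difference between subgroups, and SOX9, the other SOXE gene, had too few reads for the filter, with fewer counts in both RUNX3 KO libraries than in either control. Among the 6 tested members SOX4 changed most, with a fall of 49.3%, and the others changed by 9.89% to 37.3%. A call here is an adjusted p under 0.05, from the quasi-likelihood test of edgeR and the Benjamini-Hochberg method. With it, 24.4% of all 12967 tested genes were lower and 24.5% were higher, 48.9% in all, and in 72.7% of them the 2 control libraries did not overlap the 2 RUNX3 KO libraries. Against that background, calls for 6 of 6 genes and no overlap in any of the 6 are a description of genes that had to have reads to be tested, and say little by themselves about the family. None of the 6 reached a 2-fold change, which 6.12% of tested genes (4.01% lower and 2.11% higher) did with an unadjusted p of 0.05 or less. Their median log2 fold change was 0.03 beside -0.0021 over all tested genes, and their median absolute log2 fold change was 0.42 beside 0.19. In bulk RNA, fewer cells that express a gene and less RNA per cell cannot be told apart.

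**Figure D1:**
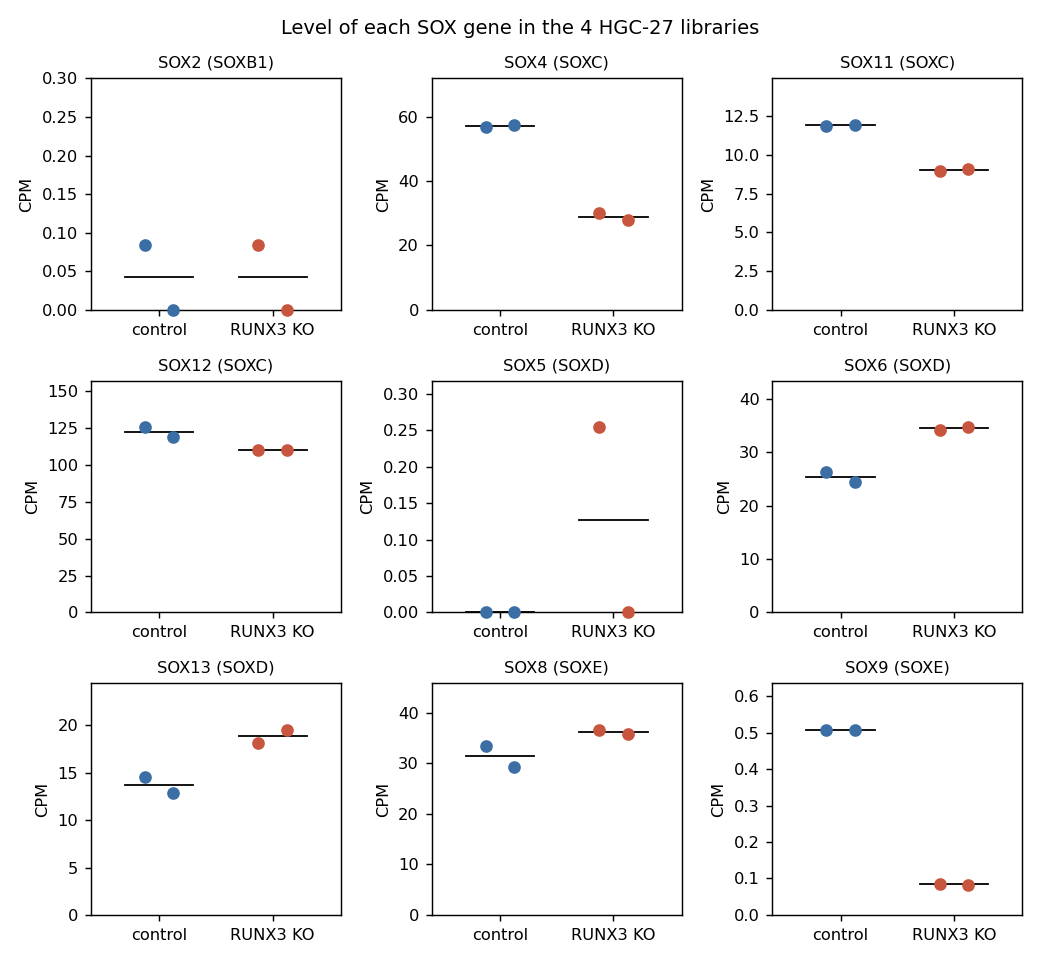
Level of each of the 9 SOX genes in CPM (counts relative to the TMM-scaled library size) on linear axes that start at 0 and differ between panels; blue points are the 2 control libraries, red points the 2 RUNX3 KO libraries, and black lines the means. SOX4 went from a mean of 57.1 to 29.0 CPM, SOX6 and SOX13 rose, and SOX2 and SOX5 lay at or near 0.

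SOX4, an intronless gene of 4869 bases at chr6:21593982-21598850 (GRCh37, plus strand), had 670 and 678 counts in control cells against 356 and 334 in RUNX3 KO cells. The control values lay within a few counts of each other, and both RUNX3 KO values were far below them. In CPM the mean went from 57.1 ± 0.496 (SD, n = 2) to 29.0 ± 1.68 (SD, n = 2). The change was -0.98 on the log2 scale (SE 0.0696, edgeR adjusted p = 1.72e-22), a 1.97-fold lower level. Only 6.37% of tested genes changed by as much in either direction, and SOX4 stood at place 826 of 12967 by size. It lay just short of the 2-fold line, so a rule that asks for 2-fold would leave it out, although leaving out RUNX3 KO replicate 1 put it at -1.04. Across all 14 alternative settings its log2 fold change stayed between -1.04 and -0.92 and its adjusted p no higher than 0.0174.

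SOX11, a neural progenitor factor in the single exon at chr2:5832516-5841517 (GRCh37, plus strand), had 140 and 141 counts in control cells and 106 and 109 in RUNX3 KO cells. The groups did not overlap, and the counts were the fewest of the 6 tested members. It changed by -0.40 on the log2 scale (SE 0.132, edgeR adjusted p = 0.00857), from 11.9 ± 0.0634 to 9.02 ± 0.0606 CPM (SD, n = 2 in each). The call did not hold with DESeq2 (adjusted p = 0.176) or when either RUNX3 KO library was left out (adjusted p = 0.0802 and 0.0791 by edgeR).

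SOX12, the third SOXC gene, is the one with the most reads, at chr20:306196-310868 (GRCh37, plus strand, 1 exon). It had 1480 and 1402 counts in control cells and 1298 and 1323 in RUNX3 KO cells. The libraries did not overlap, but the change was small: it was -0.15 on the log2 scale (SE 0.0428, edgeR adjusted p = 0.00218), a fall of 9.89% from 122 ± 4.64 to 110.0 ± 0.0518 CPM. Of all tested genes, 58.9% changed by at least this much. The call was lost with DESeq2 (adjusted p = 0.0925) and without control replicate 1, RUNX3 KO replicate 1 or RUNX3 KO replicate 2 (adjusted p = 0.0756, 0.130 and 0.135 by edgeR). A long noncoding RNA gene, NRSN2-AS1, overlaps SOX12 on the other strand, as unnamed ones do SOX4 and SOX13, and another lies over SOX11 on the same strand. Whether reads were counted by strand is not given in the sources used here, so reads of these genes and of the SOX genes may not be separated.

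SOX4 therefore moved more than its subgroup relatives, which can be read from ratios of raw counts within a library that do not depend on scaling. SOX4 divided by SOX12 was 0.453 and 0.484 in control cells and 0.274 and 0.252 in RUNX3 KO cells, 1.78-fold lower. SOX4 divided by SOX11 was 4.79 and 4.81, then 3.36 and 3.06, 1.49-fold lower. Neither ratio overlapped between the groups. With 2 libraries a group, the smallest p of an exact two-sided permutation test is 0.333, so no p is given for the ratios.

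SOX6, which has a role in cartilage, muscle and red blood cells, is a long gene of 16 exons that spans 773144 bases at chr11:15987995-16761138 (GRCh37, minus strand). It had 311 and 289 counts in control cells and 404 and 417 in RUNX3 KO cells. Both RUNX3 KO libraries were above both controls. The mean went from 25.4 ± 1.31 up to 34.5 ± 0.323 CPM (SD, n = 2 in each), or by 0.44 on the log2 scale (SE 0.0805, edgeR adjusted p = 2.52e-06). It kept its call in all 14 alternatives, with log2 fold changes of 0.39 to 0.49 and a highest adjusted p of 0.0482. C11orf58, a protein-coding gene on the opposite strand, overlaps SOX6. It did not pass the test (log2 fold change 0.05, edgeR adjusted p = 0.252).

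SOX13, the SOXD gene that is also expressed in T cells and was found as an autoantigen, lies at chr1:204042243-204096871 (GRCh37, plus strand, 14 exons). It had 172 and 152 counts in control cells and 214 and 235 in RUNX3 KO cells. The groups did not overlap, and the 2 libraries of each condition lay about as far apart in both. The mean went from 13.7 ± 1.19 to 18.8 ± 1.00 CPM (SD, n = 2 in each), or by 0.46 on the log2 scale (SE 0.108, edgeR adjusted p = 0.000215). With DESeq2 the adjusted p was 0.0396, and without RUNX3 KO replicate 1 or 2 it was 0.0563 and 0.0973 by edgeR. The ratio of both SOXD genes showed no separation of the groups: SOX13 divided by SOX6 was 0.553 and 0.526 in control and 0.530 and 0.564 in RUNX3 KO cells, and the groups overlapped.

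SOX8, a neural crest and testis factor of 3 exons at chr16:1031770-1036979 (GRCh37, plus strand), had 396 and 346 counts in control cells and 433 and 430 in RUNX3 KO cells. The control pair differed more from each other than the upper control did from either RUNX3 KO library. The level rose by 0.20 on the log2 scale (SE 0.0769, edgeR adjusted p = 0.0213), from 31.4 ± 2.99 to 36.2 ± 0.650 CPM. It lost its call under 5 of the 14 alternatives. The adjusted p was 0.240 with DESeq2 and 0.117 with no filter on low counts. Without control replicate 2 the log2 fold change was 0.11 (adjusted p = 0.366), and without RUNX3 KO replicate 1 or 2 the adjusted p was 0.280 and 0.230, all by edgeR.

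**Figure D2:**
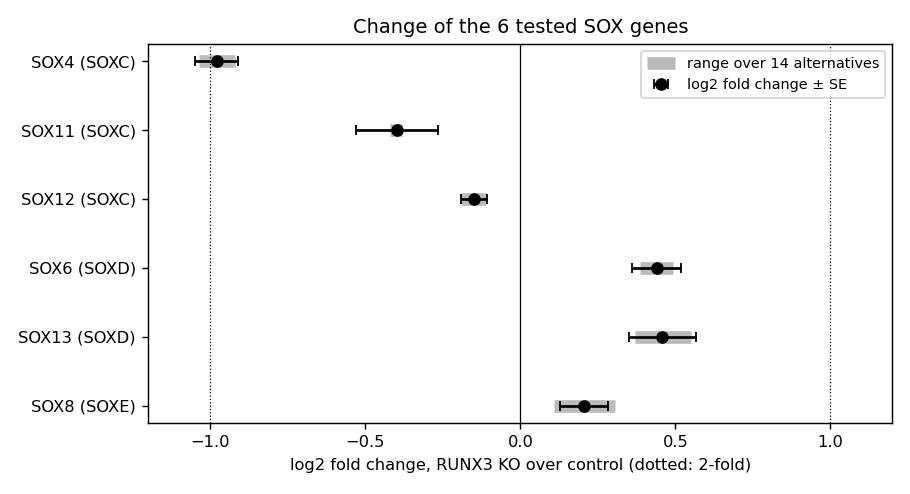
Log2 fold change of the 6 tested SOX genes, RUNX3 KO over control, with black points and bars for the value and its SE and grey bars for the range over 14 alternative settings; the dotted lines mark 2-fold. SOX4 lies at -0.98, just inside the 2-fold line, and the grey bars of the 6 genes stay on their own side of 0.

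The 3 remaining members had too few reads to test. SOX9, the SOXE factor of cartilage, gut crypts and pancreatic ducts, had 6 and 6 counts in control cells and 1 and 1 in RUNX3 KO cells. Pooled, that is 12 counts against 2, a ratio of 6.05 with an exact 95% counting interval of 1.35 to 55.7 that covers counting error only. When no filter on low counts was applied, SOX9 reached an adjusted p of 0.0435 by edgeR over 17650 genes. SOX2 had 1 and 0 counts in control and 1 and 0 in RUNX3 KO cells, and SOX5, a SOXD gene of 15 exons, had 0 and 0, then 3 and 0. Both were at the floor of 3 counts in every library, and 1 count was worth 0.0831 to 0.0847 CPM. The stem cell factor SOX2 was therefore not detectable above this floor, and at this depth no change in SOX2 or SOX5 could be shown.

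Per transcript length, SOX12 was the most abundant SOX mRNA in both conditions. In RPKM (CPM per kilobase of the canonical transcript), SOX12 stood at 26.1 ± 0.992 in control and 23.5 ± 0.0111 in RUNX3 KO cells (SD, n = 2 in each). In control cells SOX4 followed at 11.7 ± 0.102, then SOX8 at 10.2 ± 0.967, SOX13 at 3.37 ± 0.293, SOX6 at 2.73 ± 0.141, SOX11 at 1.32 ± 0.00704 and SOX9 at 0.129. SOX4 and SOX8 were close there, with SOX8 at 10.9 and 9.50 RPKM against 11.7 and 11.8. In RUNX3 KO cells SOX8 at 11.7 ± 0.210 stood above SOX4 at 5.95 ± 0.346, so the order of this pair turned, and SOX13 at 4.62 ± 0.246 came near SOX4. The union of all exons as length was a choice made after the data were seen. With it SOX4 also lay below SOX8 in RUNX3 KO cells (6.19 and 5.71 against 8.21 and 8.002). The pair was farther apart in control cells (11.7 and 11.8 against 7.504 and 6.56). SOX6 (1.31 and 1.22) and SOX11 (1.32 and 1.33) came level in control cells. By this length SOX13 did not come near SOX4 in RUNX3 KO cells (2.44 and 2.63 against 6.19 and 5.71).

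The sum of the 9 SOX genes was 55.6 ± 2.31 RPKM in control and 50.6 ± 0.307 in RUNX3 KO cells (SD, n = 2 in each). SOXC genes made up 69.5% and 71.4% of that sum in control cells against 60.5% and 60.1% in RUNX3 KO cells. The share of SOX4 alone was 20.4% and 21.9%, then 12.2% and 11.3%, while that of SOX12 was 47.0 ± 0.166% and 46.5 ± 0.304%. The SOXD share went from 11.0 ± 0.325% to 16.5 ± 0.604%, and the SOXE share from 18.5 ± 0.971% to 23.2 ± 0.275%. With the exon union as length the SOXC share was 79.2% and 71.1%, the SOXD share 6.29% and 9.94% and the SOXE share 14.5% and 18.9%, in the same directions.

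**Figure D3:**
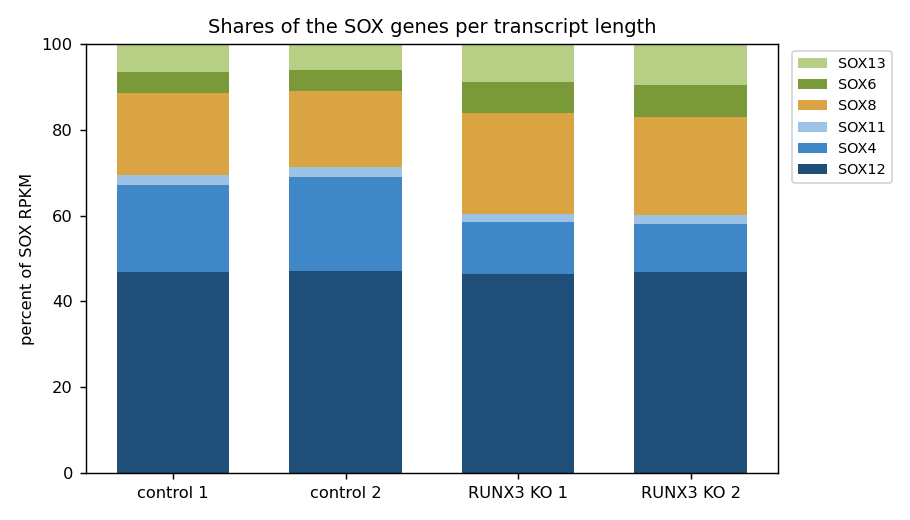
Stacked bars of each library's SOX RPKM, in percent of the sum over the 9 genes, for the 6 tested members (the other members, each under 0.3%, are not drawn). SOX12 holds about the same share in all 4 libraries, SOX4 takes 20.4% and 21.9% in control and 12.2% and 11.3% in RUNX3 KO libraries, and the SOX8, SOX6 and SOX13 shares are larger in RUNX3 KO libraries.

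Other SOX genes were sparse. SOX18, an endothelial factor, had 54 and 47 counts in control and 53 and 58 in RUNX3 KO cells (adjusted p = 0.646 by edgeR), and SOX7, its subgroup relative, had 9 and 6, then 11 and 16 (adjusted p = 0.118 by edgeR). SOX15 had 0 and 4, then 0 and 2 counts, and SOX30 had 1 count in all. The remaining 6 of the 10 other SOX symbols that were looked up, and SOX2-OT, the noncoding gene over SOX2, had no count in any library.

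The SOX genes were also compared with the nearest tested genes on their chromosomes, up to 40 of them. SOX4 stands in a gene-poor stretch: CDKAL1, the nearest tested gene, was 361 kb away and had a log2 fold change of -0.07 (adjusted p = 0.535 by edgeR). Of the 40 neighbours of SOX4, 20 were lower and 20 higher. The median of their log2 fold changes was -0.0019, and 2 fell as far as SOX4 or further. For SOX6 the median of its 40 neighbours was 0.02 and 2 rose as far. SOX13 rose where 28 of its 40 neighbours were lower, 20 of them past the test, with a median of -0.16, and ETNK2, which lies 3.32 kb to its right, had a log2 fold change of -1.03. SOX12 was lower where 16 of its 22 neighbours were higher, 10 of them past the test (median 0.10). SOX8 had a log2 fold change only 0.07 above the median of its neighbours (0.14), and 16 of the 40 changed as far or further upward. SOX11 was 0.38 below the median of its 31 neighbours (-0.02).

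**Figure D4:**
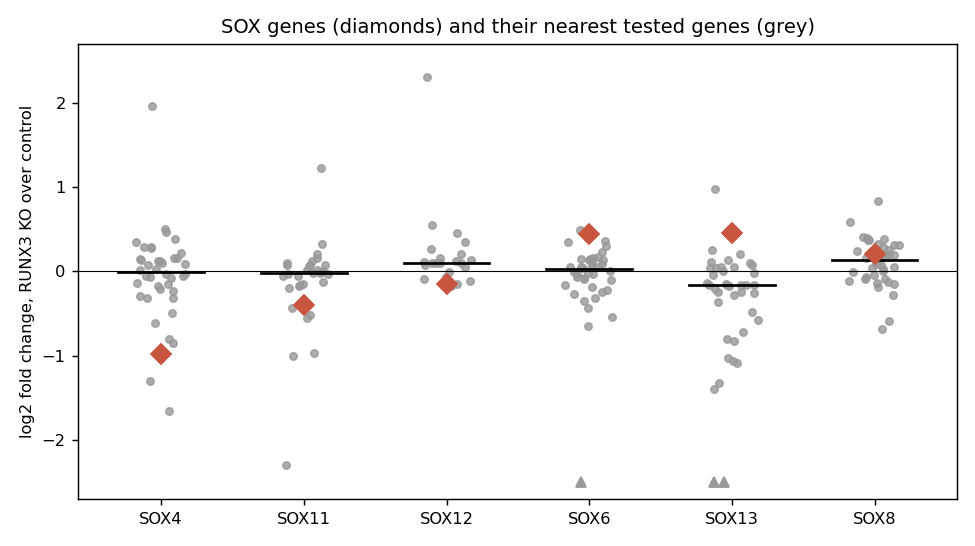
Log2 fold change, RUNX3 KO over control, of each tested SOX gene (red diamond) and of its nearest tested genes (grey points, up to 40, with a black line at their median); triangles mark the 3 neighbours beyond 2.5. SOX4 lies far below and SOX13 far above the median of their neighbours, and SOX8 lies near it.

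Promoter windows of 250 bases before an annotated start (RefSeq, GRCh38.p14) were at hand for 6 of the 9 members, and SOX8, SOX9 and SOX11 had none in the table. The letters that RUNX factors bind, TGTGGT or TGCGGT on either strand, occur in 11.0% and 5.84% of all 35116 such windows. The SOX4 window, chr6:21593501-21593750 on the plus strand, is shown because SOX4 changed most among the tested members. It held no match to either, so nothing is in capitals. There were 4 matches to CCAAT or to ATTGG, its other strand (found in 32.0% of all windows), at 181, 114, 57 and 10 bases before the start. Only the match at 114 reads CCAAT. There were also 2 CAGCTG letters (13.99%) at 221 and 63.
SOX4 window: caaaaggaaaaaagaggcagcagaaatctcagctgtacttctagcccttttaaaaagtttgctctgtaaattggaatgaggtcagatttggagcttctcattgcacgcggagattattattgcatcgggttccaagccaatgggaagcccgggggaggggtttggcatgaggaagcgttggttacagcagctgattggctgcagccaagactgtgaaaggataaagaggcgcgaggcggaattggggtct
The SOX6 windows 3 and 5 of 5, at chr11:16408857-16409106 and chr11:16356547-16356796 on the minus strand, held ACCACA, the other strand of TGTGGT, 138 and 242 bases before the start. They are the only windows of the 6 members with that match, which is in capitals. SOX6 had 5 windows and each other member had 1, so SOX6 had more places for a match. Whether these starts are used in HGC-27 cells was not tested.
SOX6 window 3: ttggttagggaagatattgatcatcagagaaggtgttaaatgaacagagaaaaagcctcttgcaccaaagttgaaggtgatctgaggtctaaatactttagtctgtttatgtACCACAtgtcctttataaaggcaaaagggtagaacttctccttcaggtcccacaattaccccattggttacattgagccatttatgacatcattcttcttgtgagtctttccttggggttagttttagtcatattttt
SOX6 window 5: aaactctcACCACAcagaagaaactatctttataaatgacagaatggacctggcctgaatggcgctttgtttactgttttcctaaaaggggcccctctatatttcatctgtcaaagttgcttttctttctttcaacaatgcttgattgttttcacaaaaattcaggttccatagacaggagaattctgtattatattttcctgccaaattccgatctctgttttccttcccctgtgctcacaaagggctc
A match of these letters is a description and is not a binding site, and SOX12 and SOX13, whose windows hold none, are not thereby without one elsewhere.

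The genes that SOX factors act on or with were taken from lists and described by counts, to be read beside the 24.4% of all tested genes that were lower, the 24.5% that were higher and their median of -0.0021. These lists are short, and nothing particular to a list is read from its count. Of 10 SOXC target genes, 7 were tested, 3 were lower, 0 higher and 4 did not pass, with a median log2 fold change of -0.25. NCAM1, a neural cell adhesion molecule, had 598 and 600 counts in control and 144 and 145 in RUNX3 KO cells, 4.18-fold lower. TUBB3, a neuronal beta-tubulin, went from 1035 and 1024 to 727 and 698, 1.46-fold lower. DICER1, which cuts microRNA precursors, had 1648 and 1657, then 1490 and 1296 counts, and its call was lost with DESeq2 (adjusted p = 0.0584) and, by edgeR, with no filter on low counts (adjusted p = 0.0542) and without RUNX3 KO replicate 2 (adjusted p = 0.0674). TEAD2 and EZH2 did not pass.

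Of 14 cartilage matrix genes linked to SOX9, SOX5 and SOX6, 7 were tested, 5 were lower and 1 was higher, with a median of -0.30. HAPLN1, which links hyaluronan to aggrecan, had 1722 and 1618 counts in control and 360 and 371 in RUNX3 KO cells, 4.61-fold lower, while COL11A1, a fibrillar collagen chain, went from 3468 and 3461 to 4964 and 5104, 1.44-fold higher. COMP and COL11A2, both of low count, lost their calls with DESeq2 (adjusted p = 0.174 and 0.203), with which 2 genes of the list were lower. Without RUNX3 KO replicate 1 or 2 2 genes of the list were lower by edgeR, and without control replicate 1 there were 3. HAPLN1 also stands in the study's lists of targets of active RUNX3 sites that hold a CDX2, LHX2 or TCF3 motif. Those lists carry expression fold changes, and the share of all tested genes in them was not worked out. A place in them is therefore a description. Of 12 SOX2 partners and pluripotency genes, 4 were tested, 2 lower and 2 higher (median -0.43). NES, an intermediate filament of neural progenitors, went from 1474 and 1519 to 606 and 612 counts, 2.48-fold lower, and POU3F2, a neural POU factor, from 87 and 93 to 40 and 36, 2.39-fold lower. PAX6 went from 261 and 256 to 446 and 492, 1.80-fold higher, and LIN28B, which blocks let-7 microRNAs, from 280 and 233 to 341 and 341, 1.32-fold higher, a call lost without either RUNX3 KO library (adjusted p = 0.127 and 0.125 by edgeR). POU5F1 and NANOG had no count.

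Of 11 neural crest and glial genes, 4 were tested, 1 lower, 1 higher and 2 not called (median 0.10). TFAP2A, an early neural crest factor, went from 453 and 437 to 192 and 224 counts, 2.16-fold lower, and MITF, the melanocyte factor, from 240 and 227 to 327 and 372, 1.48-fold higher. Of 11 gut stem cell genes, 7 were tested, 4 lower, 1 higher and 2 not called (median -0.30). EPHB2, a crypt receptor, went from 271 and 280 to 84 and 91 counts, 3.17-fold lower, EPHB3 was 2.02-fold lower, and AXIN2, a Wnt feedback gene, went from 1642 and 1650 to 898 and 920, 1.83-fold lower. TNFRSF19 rose from 64 and 70 to 176 and 210, 2.85-fold. TFAP2A and AXIN2 stand in these lists of the study too.

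SOX4 is known to be induced by TGF-beta. Of 9 genes of that pathway, 7 were tested, 3 lower, 1 higher and 3 not called (median -0.07). SOX4, TGFB2 and TGFB3 are each in 1 or more of these lists of the study, which is a description and not a test. The 3 that were lower are the ligands TGFB1 (919 and 881, then 632 and 652 counts, 1.41-fold lower), TGFB2 (1.71-fold lower) and TGFB3 (665 and 657, then 376 and 379, 1.77-fold lower). TGFBR1, SMAD3 and SMAD4 did not pass. TGFBR2, a receptor gene of the list, had 5 and 3, then 4 and 3 counts and was not tested. The part of TGF-beta in the SOX4 values was not tested. SMAD2, an intracellular mediator, was 1.12-fold higher, and its call was lost with DESeq2 (adjusted p = 0.0561) and without RUNX3 KO replicate 1 or 2 (adjusted p = 0.0672 and 0.0542 by edgeR). Of 15 cofactors and regulators of SOX proteins, all 15 were tested, 3 were lower, 7 higher and 5 not called (median 0.10). EP300, an acetyltransferase that SOX factors recruit, went from 2070 and 2114 to 1396 and 1450 counts, 1.48-fold lower. CALM2, a calmodulin gene, and CTBP2, a corepressor bound by SOXD proteins, rose by 0.26 on the log2 scale each. The CTBP2 call was lost without either RUNX3 KO library (adjusted p = 0.0804 and 0.119 by edgeR). With DESeq2, 3 rather than 7 of the cofactors were higher, and without either RUNX3 KO library 2 were.

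**Figure D5:**
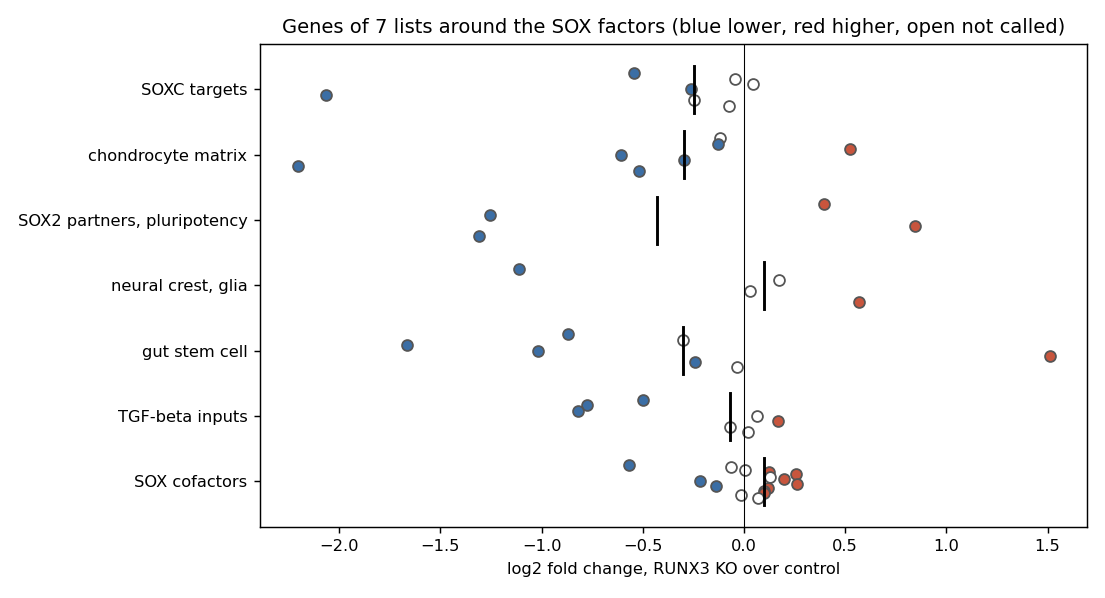
Log2 fold change, RUNX3 KO over control, of the tested genes of 7 lists around the SOX factors, with a black line at each list's median; blue points passed the test as lower, red as higher and open points did not pass. The medians range from -0.43 to 0.10, and the longest falls are those of HAPLN1 and NCAM1.

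The tested genes whose pattern over the 4 libraries lay nearest to SOX4, by the distance between log2 CPM centred over the libraries, were GDPD5 (0.0344), GPRC5B (0.0345) and ID2 (0.0355), with log2 fold changes of -0.98, -1.05 and -0.999. Those nearest to SOX13, the member with the highest log2 fold change, were LMLN (0.0121), PGBD4 (0.0343) and EPB41L5 (0.0355), with 0.49, 0.46 and 0.43. Over 4 libraries in 2 conditions, such likeness mainly reflects a fold change of the same size.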

How the data were processed

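Counts of reads per gene symbol were deposited by the authors for 2 wt and 2 RUNX3KO libraries of HGC-27, without normalization. The sources differ on how they were made: the submitters' processing notes name bcl2fastq, HISAT2 2.1.0, HTSeq and hg19, whereas the methods name STAR, FeatureCounts, hg19 and GENCODE. They also differ on the culture medium (MEM or RPMI) and on the RNA extraction. Parameters and the strand setting are not given in the sources used here, so reads of overlapping antisense genes may not be separated. The 5 rows for reads without a gene, 25.9% to 28.1% of all counts, were left out.

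The analysis used edgeR 4.0.16 under R 4.3.3. The filter filterByExpr (minimum count 10, minimum total 15) left 12967 of 25559 genes, and libraries were scaled by TMM. The quasi-likelihood test of edgeR compared the groups without a replicate block, and p-values were adjusted by Benjamini-Hochberg across the tested genes. Wild-type and RUNX3 KO groups came from the labels. The labels do not say that the replicates came from separate cultures, so p-values measure only the spread between these libraries, which may be technical: the biological coefficient of variation was 1.45%. On simulated counts, 90 of 100 genes with a log2 change of 1 and 99 of 99 with 2 were recovered, with 3 false calls among 12929 genes tested. The simulation changed far fewer genes than were called in the data and used a dispersion above the common one of the data. Recovery of changes smaller than 1, as in the tested SOX genes, was not simulated.

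DESeq2 1.42.0, limma 3.58.1, other scalings and filters, the replicate block and leaving out each library were tried as alternatives. Gene models were GENCODE on GRCh37, and 21438 of 25559 symbols matched a GENCODE name directly or through a RefSeq synonym. The nearest genes and likeness used all tested genes, with 0.5 CPM added before log2 for likeness. Named genes were the 9 members, other SOX genes with a count, RUNX3 and up to 4 called genes per list with the largest change. The 3 genes most like the lowest and highest members were named too. TEAD2, EZH2, POU5F1, NANOG, KRT19, EPCAM, SOX2-OT, TGFBR1, TGFBR2, SMAD3 and SMAD4 were added after their values were seen. So were the neighbouring or overlapping genes CDKAL1, ETNK2, C11orf58 and NRSN2-AS1. Some genes that this rule names are not reported here. The members and lists were chosen with earlier results of these data known. The union of exons as gene length was added after seeing the data.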

Additional observations from a re-analysis of the deposited data

How the results depend on the processing

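SOX4 and SOX6 kept direction and call under all 14 alternatives, and no SOX gene changed direction. The tested SOX genes, the called genes named from the lists and RUNX3 were followed under every alternative that gave a value. Of their log2 fold changes, 475 kept their side of the threshold and 41 lost it. The genes most like SOX4 and SOX13 were not among them. With DESeq2 as the test, 1863 genes were lower and 1829 higher, 1 SOX gene was lower (SOX4) and 2 higher, and the log2 fold changes of SOX11 (-0.40), SOX12 (-0.15) and SOX8 (0.21) did not pass. With no filter SOX8 (0.21) did not pass. The rule of a 2-fold change with an unadjusted p up to 0.05 gave 520 genes lower and 274 higher, with 0 SOX genes either way, and a 1.5-fold change with an adjusted p under 0.05 gave 1068 and 598, with 1 SOX gene lower and 0 higher. Leaving out 1 library gave 1378 to 2806 genes lower and 1285 to 2745 higher, with 1 to 3 SOX genes lower and 1 to 3 higher. The lowest counts came without a RUNX3 KO library (1531 lower and 1483 higher without replicate 1, 1378 and 1285 without replicate 2), and each such fit assumes that the lone library varies like the other group. Over those fits the log2 fold changes were -1.04 to -0.92 for SOX4, -0.41 to -0.39 for SOX11, -0.19 to -0.11 for SOX12, 0.39 to 0.49 for SOX6, 0.37 to 0.55 for SOX13 and 0.11 to 0.31 for SOX8. The cause of the lost calls was not tested. Replicate numbers did not pair the samples (r = 0.0257 over 12967 genes), and the replicate block gave 3143 genes lower and 3143 higher, with 3 SOX genes either way. The largest shift of the median log2 fold change under another scaling was -0.0207, with upper quartiles. At this depth, SOX2, SOX5 and SOX9 were too low to test under the filter.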
